A study of Mus musculus with 24 samples.

Results

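The mitochondrial ribosomal protein genes were taken as the protein-coding genes whose symbol is Mrpl or Mrps followed by a digit, with a mean of at least 1 CPM (a gene's count scaled to a common library size) over all libraries. The rule found 78 genes, 49 named Mrpl and 29 named Mrps, among the 55335 genes of the count table, of which 12366 had a mean of at least 1 CPM. All 78 protein-coding genes with such a symbol met the level rule, and all 78 were among the 15953 genes that passed the filter on low counts, so no gene was lost through its level. Of the 78, 30 encode large subunit proteins that take the place of a bacterial one (conserved), 21 large subunit proteins in positions the bacterial ribosome lacks (mitochondria-specific), 16 conserved and 10 mitochondria-specific small subunit proteins. Mrps30 and Mrps18a carry small subunit names but sit in the large subunit and were counted there, while Mrps36, which belongs to the oxoglutarate dehydrogenase complex and not to the ribosome, was kept apart.

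Mitochondrial ribosomes sit at the inner membrane and translate the few proteins encoded by mitochondrial DNA, all of them subunits of the respiratory chain and ATP synthase. Their RNAs come from mitochondrial DNA, but every ribosomal protein is encoded in the nucleus, made in the cytosol and imported. T cells are known to enlarge their mitochondria after activation, and this needs both genomes to be expressed.

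The libraries held RNA of invariant natural killer T (iNKT) cells, which recognise glycolipids on the antigen-presenting molecule CD1d, sorted from the mesenteric lymph nodes of mice of the C57BL/6J strain. Their mothers had been given a fecal transplant (FT) from wild-type donors (WT FT) or from CD1d knockout donors (KO FT). All mice were gavaged once, with 2 µg of the CD1d ligand alpha-galactosylceramide (aGC) in 200 µL PBS or with 200 µL PBS alone, and cells were taken after 24 h. Females and males of each FT and treatment gave 8 groups of 3 libraries, 24 in all. KO refers to the donor of the transplant, not to the genotype of the mouse whose cells were sequenced, and the sources used here give neither the age of the mice nor how cells were gated. No label says how many mice stand behind a library or whether libraries of 1 group are separate animals, so p-values measure no more than the spread among these libraries, which could be technical.

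Library totals ran from 9764931 to 37016768 counts, and no member had fewer than 109 counts in a library. The median coefficient of variation of a member between the 3 libraries of a group was 5.39%. Transcripts of the invariant T cell receptor chain gene Trav11 stood between 325 and 880.1 CPM in the 24 libraries and fell after aGC, by 0.68 on the log2 scale in WT FT mice and 0.73 in KO FT mice. Of the 8 iNKT markers 6 fell and 1, Tbx21, rose in WT FT mice, and 5 fell and 1, Cd4, rose in KO FT mice. Both rises average opposite changes in the sexes. Tbx21 fell in WT FT females, from between 488 and 526 CPM to between 411 and 421 CPM. In WT FT males it rose from between 275.5 and 305 CPM to between 414 and 424 CPM. Cd4 rose in KO FT females, from between 93.0 and 114 CPM to between 175 and 220 CPM. In KO FT males it fell from between 204 and 236 CPM to between 159 and 181 CPM. The sum of the 8 iNKT markers went from between 5437 and 6597 CPM after PBS to between 3787 and 4107 CPM after aGC in WT FT mice, and from between 6166 and 6990 CPM to between 4666 and 5203 CPM in KO FT mice, so that every aGC library lay below every PBS library of the same donor. The CD8 T cell markers Cd8a and Cd8b1, summed, stood at 889 to 903 CPM in WT FT PBS males, 580.1 to 588 in WT FT aGC females, 415 to 420 in KO FT PBS males and 493 to 532 in KO FT aGC females. In the other 4 groups they stood at 14.2 to 18.7 CPM, so that PBS males and aGC females stood apart from PBS females and aGC males with both donors. The 5 myeloid markers, summed, stood at 66.1 to 69.3 CPM in WT FT PBS females and 10.7 to 12.97 CPM in aGC females, and at 27.95 to 33.5 CPM in WT FT PBS males and 18.2 to 19.8 CPM in aGC males. With the KO donor they went from between 41.1 and 47.8 CPM to between 9.15 and 10.96 CPM in females and from between 7.56 and 9.04 CPM to between 29.9 and 34.5 CPM in males. Of the myeloid markers Lyz2 stood at 0.356 to 63.3 CPM over all libraries, and each of the others at no more than 5.42 CPM. The 2 plasma cell markers, summed, went from a mean of 33.5 CPM after PBS to 10.8 CPM after aGC in WT FT females, and from 41.9 to 13.8 CPM in KO FT females, while the libraries of the male groups stood at 19.1 to 32.1 CPM. Nearly all of this sum was Sdc1, at 9.88 to 43.1 CPM over all libraries. Jchain stood at 0 to 4.93 CPM, so the sum says little about plasma cells. The 3 epithelium and stroma markers, summed, stood at 41.7 to 96.9 CPM, the 5 B cell markers at 7.49 to 27.7 CPM and the 2 red cell markers at no more than 2.94 CPM, with no red cell count in some libraries. Most of the epithelium and stroma sum was Pecam1, at 37.9 to 89.2 CPM. Epcam stood at 2.79 to 10.3 CPM and Col1a1 at 0 to 3.21 CPM. The part of these markers in the results on the members was not tested. In such mixed samples a change in the share of a cell type and a change in RNA per cell cannot be told apart.

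Per kilobase of transcript, the members spanned a wide range. The highest were Mrpl42, at 189 CPM per kb, Mrpl33 at 176, Mrpl12 at 167, Mrpl20 at 151 and Mrpl18 at 140.1. The lowest were Mrpl47, at 7.79 CPM per kb, Mrpl32 at 9.49, Mrps25 at 11.4, Mrpl1 at 11.96 and Mrps35 at 15.4. These levels divide the mean over 24 libraries by the median length of a gene's annotated coding transcripts, so genes with long untranslated ends stand low.

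Together the 78 genes took up a larger share of the counts after aGC in WT FT mice than in any other group. Their share was 0.492% ± 0.0058 (SD, n = 3) in WT FT PBS females and 0.522% ± 0.0069 in WT FT PBS males. After aGC it was 0.693% ± 0.0127 in females and 0.808% ± 0.0143 in males with the WT donor, 1.41 and 1.55 times the share after PBS. In KO FT mice the share was 0.556% ± 0.011 in PBS females, 0.451% ± 0.0123 in PBS males, 0.572% ± 0.0028 in aGC females and 0.606% ± 0.0358 in aGC males. The share after aGC was thus 1.34 times that after PBS in KO FT males and 1.03 times in KO FT females, where the libraries of PBS and aGC lay close together, at 0.545% to 0.567% and 0.568% to 0.574%. Large and small subunit genes followed the same order. In WT FT males, for example, large subunit genes went from 0.344% to 0.543% of the counts and small subunit genes from 0.177% to 0.262%.

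**Figure D1:**
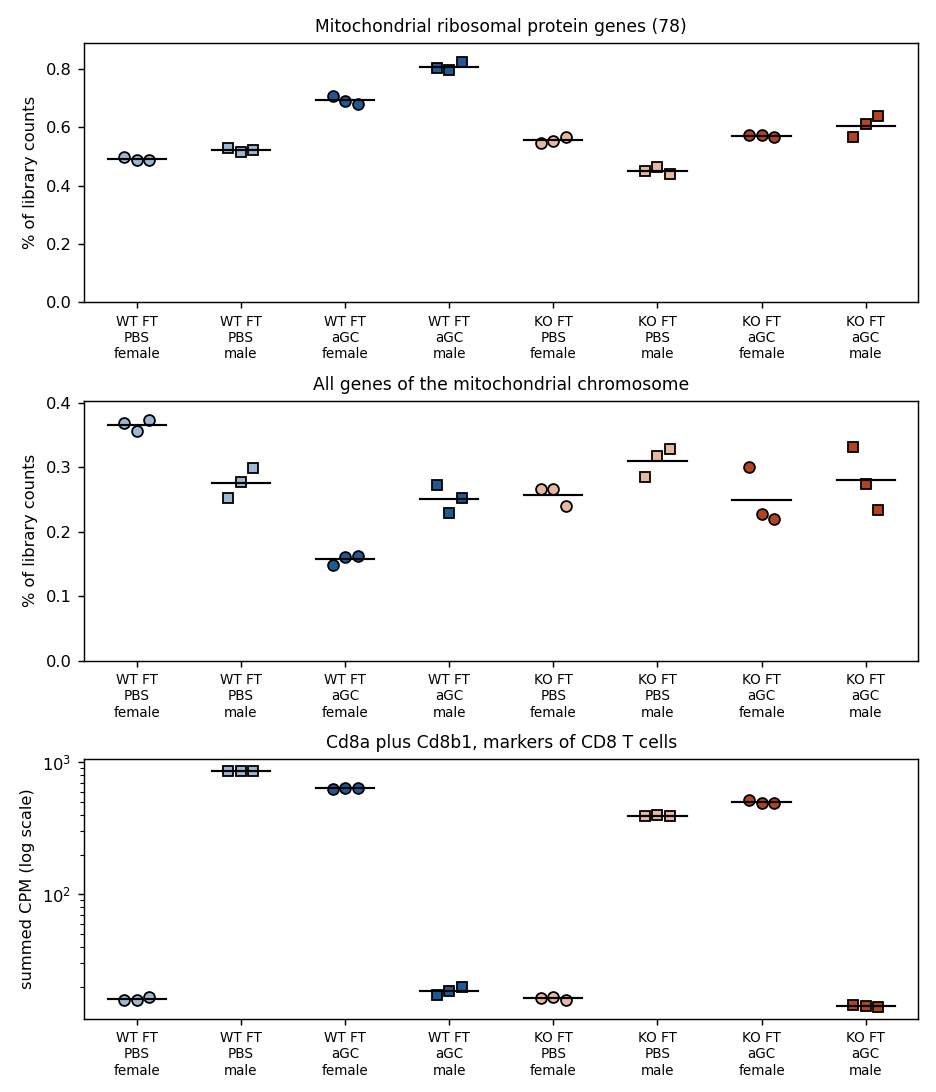
Share of library counts held by the 78 mitochondrial ribosomal protein genes (top) and by all genes of the mitochondrial chromosome (middle), and summed level of Cd8a and Cd8b1 in CPM on a log axis (bottom). Each point is 1 library (circles females, squares males), and each line is the mean of 3 libraries. The WT FT aGC libraries lie above all others in the top panel, while the CD8 markers are high in PBS males and aGC females.

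In WT FT mice the response to aGC ran through nearly the whole ribosome. Of the 78 genes 75 rose, 0 fell and 3 did not pass (edgeR's quasi-likelihood test, adjusted p under 0.05, sexes weighted equally). Over all genes tested, 30.9% were called higher and 37.5% lower. The median log2 change was 0.67 over the members and -0.11 over all genes. For 65 of the 78, every one of the 6 aGC libraries lay above every one of the 6 PBS libraries, which held for 17.9% of all genes. All 4 classes took part: 29 of 30 conserved and 19 of 21 mitochondria-specific large subunit genes rose, as did all 16 conserved and all 10 mitochondria-specific small subunit genes, with class medians of 0.75, 0.66, 0.54 and 0.56 on the log2 scale. At least 2-fold rises were seen for 14 genes, against 11.8% of all genes.

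Mrps6, a protein of the small subunit platform, had the largest rise. It stood at 44.1, 43.3 and 40.7 CPM in WT FT PBS females and at 36.3, 36.3 and 36.8 CPM in PBS males. After aGC it stood at 129, 131 and 131 CPM in females and at 157, 160.4 and 164 CPM in males. The groups did not overlap, and the log2 change was 1.87 ± 0.037 (SE), 3.66-fold, with an edgeR adjusted p of 5.44e-22.

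Mrpl12 followed. It is the relative of the bacterial stalk protein that recruits translation factors, and it was the highest member in CPM. WT FT PBS females had 122, 119 and 120.2 CPM, and PBS males had 144, 132 and 133 CPM. After aGC, females had 373, 350.4 and 339 CPM and males 398, 404 and 413 CPM. The rise was 1.56 ± 0.059 on the log2 scale, 2.96-fold (edgeR adjusted p = 6.78e-17).

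Of the stalk and the proteins around its base, Mrpl11 rose by 0.88 and Mrpl54 by 0.97, Mrpl10 rose by 0.17, and Mrpl53 did not pass, at 0.07 ± 0.086. The genes next in size were Mrpl17 (1.39), a large subunit protein near the exit of the peptide tunnel, Mrpl47 (1.37) and Mrps28 (1.34). Mrps22 rose by 1.27, Mrpl20 by 1.27, Mrpl16 by 1.17, Mrps10 by 1.15 and Mrps18b by 1.15, all on the log2 scale. Mrps22 is a small subunit protein without a bacterial relative, whose loss causes mitochondrial disease in humans.

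Mrpl2, Mrpl3, Mrps5, Mrps12 and Mrpl45, picked from those with known roles, rose by 0.70 to 0.92. The members with known roles lay on both sides of the members' median of 0.67. Mrpl10 (0.17), Mrpl58 (0.18) and Mrps30 (0.45) were among those below it. Around the peptidyl transferase centre Mrpl2 rose by 0.92 and Mrpl3 by 0.86, Mrps12, at the decoding site, rose by 0.70, and Mrps5 by 0.79. Mrpl45, which anchors the ribosome to the inner membrane at the tunnel exit, rose by 0.79. The 3 Mrps18 genes, related to each other, differed. Mrps18c, which takes the place of bacterial S18 and was counted as conserved, rose by 0.52 on the log2 scale, while Mrps18b and Mrps18a, which sit elsewhere and were counted as mitochondria-specific, rose by 1.15 and 0.68. Mrps36, outside the ribosome, rose by 0.64.

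The 3 members that did not pass in WT FT mice were Mrpl9, Mrpl44 and Mrpl53. Mrpl9, a large subunit protein with a bacterial relative, stood between 72.8 and 83.4 CPM in the 6 PBS libraries and between 77.7 and 90.4 CPM in the 6 aGC libraries. Its log2 change was 0.04 ± 0.037 (edgeR adjusted p = 0.335). Mrpl44, which resembles ribonuclease III, changed by 0.03 ± 0.037 over the sexes and moved in opposite directions in them, as described with the sexes. With library totals in place of TMM scaling, which moved the median of all genes from -0.11 to -0.26, Mrpl44 and Mrpl9 were called lower, at -0.12 and -0.11, and the counts became 69 higher and 2 lower.

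When the 3 libraries of each group were summed to 1 profile, so that the spread came from differences between groups (3 residual degrees of freedom), 24 of the 78 genes were still called higher in WT FT mice, against 7.39% of all genes, and 52 had an unadjusted p under 0.05. The members' median log2 change in that fit was 0.68. Without PBS males and aGC females, that is, comparing aGC males with PBS females, in which the CD8 markers are low on both sides, 74 of 78 genes were higher and 0 lower in WT FT mice, against 30.1% and 33.2% of all genes, with a median of 0.80. That comparison sets males against females.

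In KO FT mice fewer genes rose. Of the 78, 50 rose, 7 fell and 21 did not pass, against 28.1% higher and 30.1% lower among all genes. The median log2 change was 0.24, against -0.03 over all genes. For 21 genes every aGC library lay above every PBS library (12.6% of all genes). Mrps6 again rose most, from between 27.6 and 38.9 CPM in the 6 PBS libraries to between 104 and 109 CPM in the 6 aGC libraries. Its log2 change was 1.68 ± 0.038 (edgeR adjusted p = 1.09e-20). It was the 1 member with a rise of at least 2-fold in KO FT mice, which was seen for 8.44% of all genes.

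Next came Mrps22 (0.95), Mrpl12 (0.87), Mrps28 (0.82), Mrpl20 (0.79), Mrpl17 (0.76) and Mrpl16 (0.76). The 7 genes that fell were Mrpl57, Mrps21, Mrpl33, Mrpl53, Mrpl58, Mrps26 and Mrpl10, with log2 changes from -0.14 to -0.32. All but Mrpl53 rose in WT FT mice. Mrpl57 stood at 79.8, 89.0 and 90.6 CPM in KO FT PBS females and at 60.8, 59.2 and 56.4 CPM in PBS males. After aGC it stood at 53.0, 61.0 and 56.1 CPM in females and at 49.4, 54.4 and 68.8 CPM in males. The fall was therefore seen in females, and the males overlapped. The count of falls rested in part on single libraries: it was 2 without the first library of KO FT aGC males and 4 without the third library of KO FT PBS females.

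With 1 profile per group 1 of the 78 genes was called higher in KO FT mice (1.92% of all genes), and 12 had an unadjusted p under 0.05. Without PBS males and aGC females 33 were higher and 13 lower, against 26.6% and 25.4% of all genes.

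**Figure D2:**
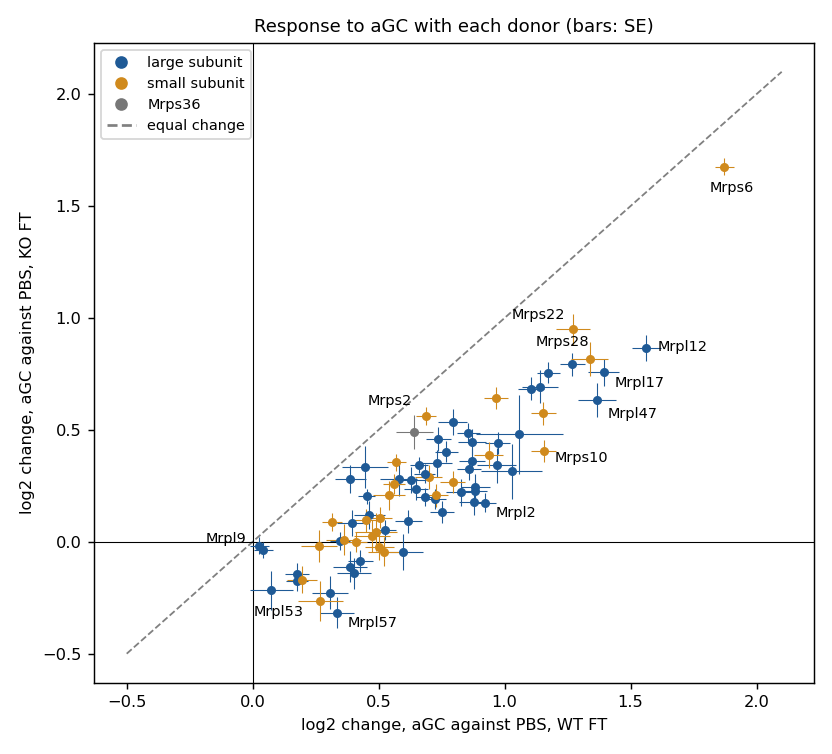
Log2 change after aGC in WT FT mice (x axis) against that in KO FT mice (y axis) for the 78 genes, with bars of 1 SE. Points under the dashed line had a lower log2 change in KO FT mice, which can be a smaller rise or a fall. All 78 lie under it, from Mrps6 at 1.87 and 1.68 to Mrpl9 at 0.04 and -0.04.

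The log2 response to aGC was lower with the KO donor. The difference of the 2 responses, KO FT minus WT FT, passed the test for 70 genes, all of them lower, against 21.9% of all genes called higher and 22.6% called lower. The median difference was -0.42 on the log2 scale, and 0.01 over all genes. Of the 70 genes, 45 still rose in KO FT mice and 19 did not pass there, against 9.33% and 6.11% of all genes with the same pair of calls. The 8 members whose difference did not pass were Mrpl9, Mrpl23, Mrpl32, Mrpl44, Mrpl49, Mrpl53, Mrps2 and Mrps36. Across the 78 genes the 2 responses had a Pearson correlation of 0.888 and a Spearman correlation of 0.858, given as a description over genes, which share libraries and are not independent.

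The largest difference was that of Mrps10, a small subunit protein of the head region. In WT FT mice it went from between 43.3 and 54.0 CPM after PBS to between 99.5 and 129 CPM after aGC. In KO FT mice it went from between 46.1 and 61.6 CPM to between 63.0 and 82.3 CPM. The aGC libraries of the 2 donors did not overlap, the PBS libraries did, and the difference was -0.75 ± 0.069 (edgeR adjusted p = 1.80e-08).

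Mrpl2, beside the peptidyl transferase centre, came next. In WT FT mice it went from between 58.5 and 76.1 CPM to between 121 and 129 CPM, and in KO FT mice from between 64.7 and 81.9 CPM to between 74.2 and 89.6 CPM. The difference was -0.75 ± 0.06 (edgeR adjusted p = 2.65e-09). Others with a large difference were Mrpl47 (-0.73), Mrpl52 (-0.71), Mrpl12 (-0.70), Mrpl30 (-0.70), Mrpl42 (-0.66) and Mrpl57 (-0.65). Mrps6, with the largest rise, had a difference of -0.20 ± 0.052 (edgeR adjusted p = 0.0036).

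With library totals, which moved the median difference of all genes from 0.01 to 0.13, 59 members were called lower and 0 higher, and all genes split into 29.1% higher and 16.3% lower. With 1 profile per group 0 members and 0% of all genes passed, and 6 members had an unadjusted p under 0.05. Without PBS males and aGC females 72 were lower and 0 higher (23.2% of all genes higher, 21.5% lower).

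The donors were then compared within each treatment. After PBS they differed little over the sexes: 4 genes were higher in KO FT mice, 16 lower and 58 did not pass, against 14.6% and 14.8% of all genes, and the median was -0.02. The 4 higher genes were Mrpl2, Mrpl24, Mrpl30 and Mrpl43, and the lower ones included Mrpl1 (-0.27), Mrpl45 (-0.26), Mrps36 (-0.25) and Mrps25 (-0.25). For 0 members did the libraries of the donors not overlap, and for all genes KO FT libraries lay wholly above in 1.67% and wholly below in 1.89%, so that this count stands near the background.

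After aGC 77 of 78 genes were lower in KO FT mice and 0 higher, against 26.5% and 25.4% of all genes, with a median of -0.48, and 0.001 over all genes. For 53 genes every KO FT library lay below every WT FT library (9.39% of all genes). The largest differences were those of Mrpl12 (-0.67), Mrpl28 (-0.66), Mrps10 (-0.65), Mrps18b (-0.62), Mrps7 (-0.62), Mrpl42 (-0.61) and Mrpl47 (-0.61). Mrpl9 was the 1 member not called, with 77.7 to 90.4 CPM in WT FT aGC libraries and 77.4 to 85.0 CPM in KO FT aGC libraries. With library totals 73 members were lower and 1, Mrpl9, was higher, while all genes split into 34% higher and 17.8% lower. With 1 profile per group 0 members and 0% of all genes were called lower, and 25 members had an unadjusted p under 0.05. The comparisons of donors and of treatments share libraries and are not independent of each other.

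Looked at within each sex, a comparison added after the data had been seen, the small difference after PBS held 2 opposite ones. In females 39 genes were higher in KO FT mice and 5 lower (14.9% and 14.9% of all genes), and in males 2 were higher and 48 lower (21.1% and 21.4%). For 28 genes the call was higher in females and lower in males, and the reverse was seen for 0, against 5.35% and 5.72% of all genes. The difference between the sexes passed for 52 genes that were lower in males and for 3 that were higher, against 21.7% and 21.1% of all genes. After aGC the sexes had the same direction, with 0 genes higher and 71 lower in females (19.0% and 24.4% of all genes) and 0 higher and 75 lower in males (24.2% and 22.4%), and 69 genes lower in both (12.2% of all genes). The difference after aGC was itself larger in males for 20 genes and smaller for 3 (12.4% and 17.4% of all genes).

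**Figure D3:**
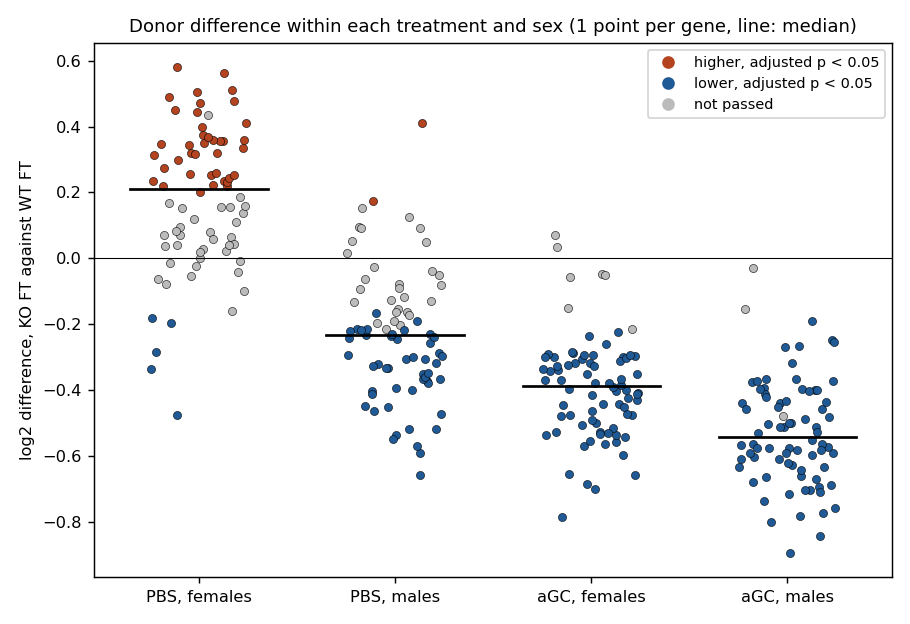
Log2 difference of KO FT against WT FT libraries for each of the 78 genes, within each treatment and sex, with the median as a line. After PBS most points lie above 0 in females (median 0.21) and below 0 in males (median -0.23), and after aGC most lie below 0 in both (medians -0.39 and -0.54).

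The 2 genes called in opposite directions in the sexes of WT FT mice, against 8.61% of all genes, were Mrpl44 and Mrpl58. Mrpl58 encodes a peptidyl-tRNA hydrolase that frees stalled ribosomes and is also built into the large subunit. It stood at 54.4, 50.7 and 54.5 CPM in WT FT PBS females and rose to 87.2, 81.1 and 79.4 CPM after aGC. In WT FT males it went from 90.3, 80.9 and 85.7 CPM down to 68.1, 73.0 and 69.8 CPM. The log2 changes were 0.63 ± 0.063 and -0.28 ± 0.063, and their difference was -0.92 ± 0.089 (edgeR adjusted p = 1.56e-08). With the KO donor it stood at 77.97 to 79.6 CPM in PBS females, 52.6 to 59.8 CPM in PBS males, 56.0 to 58.4 CPM in aGC females and 56.8 to 64.2 CPM in aGC males. The CD8 markers were high in PBS males and aGC females of both donors, and their part in the levels of Mrpl58 was not tested.

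Mrpl44 fell by 0.19 in WT FT females and rose by 0.24 in WT FT males, and in KO FT mice it fell by 0.31 in females and rose by 0.28 in males. WT FT PBS females had 86.6, 87.4 and 84.4 CPM and PBS males 71.8, 75.0 and 79.4 CPM. After aGC the females had 77.0, 79.6 and 70.4 CPM and the males 89.8, 88.7 and 88.3 CPM. The KO FT libraries had 90.2 to 92.0 CPM in PBS females, 59.65 to 63.0 CPM in PBS males, 71.2 to 74.8 CPM in aGC females and 72.1 to 75.8 CPM in aGC males. Females and males did not overlap after PBS with either donor, and after aGC they overlapped in KO FT mice alone.

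Within the sexes of WT FT mice, 69 genes rose and 1 fell in females (28.6% and 29.8% of all genes), and 74 rose and 1 fell in males (31.7% and 34.9%), with 67 that rose in both (18.6% of all genes). The rise was larger in males for 29 genes and smaller for 6, against 24.2% and 23.5% of all genes. The largest such gap was that of Mrpl32, a protein that must be cut by a mitochondrial protease before it is built in. Mrpl32 stood at 32.3, 31.4 and 36.5 CPM in WT FT PBS females and at 28.1, 29.1 and 25.6 CPM in aGC females. In males it went from 19.2, 20.3 and 22.7 CPM to 48.9, 40.8 and 49.95 CPM. The difference between the responses was 1.44 ± 0.18 (edgeR adjusted p = 7.70e-07), while the females' own change did not pass (-0.27 ± 0.13). Mrpl50 rose in both, by 0.56 in females and 1.73 in males. Mrps34 went the other way, with rises of 1.06 in females and 0.39 in males.

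In KO FT mice the sexes lay further apart. In females 23 genes rose and 17 fell, which is near the 27.7% and 28.3% of all genes, with a median of 0.04. In males 60 rose and 0 fell, against 26.8% and 26.7% of all genes, with a median of 0.45. The response was more positive in males for 59 genes and less so for 1, Mrpl38 (25.3% and 21.4% of all genes). The largest gap was that of Mrpl14, a conserved large subunit protein at the interface of the subunits. It went from 29.6, 30.3 and 34.4 CPM to 21.9, 17.7 and 18.7 CPM in females and from 18.5, 17.7 and 17.9 CPM to 22.6, 25.3 and 27.2 CPM in males. The gap was 1.18 ± 0.14 (edgeR adjusted p = 4.53e-07). Mrps21, Mrps14, Mrps16, Mrps24, Mrps33, Mrpl41 and Mrpl44 likewise fell in females and rose in males. In both donors the female comparison set low against high CD8 markers and the male comparison high against low, and the part of that in the sex differences was not tested.

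**Figure D4:**
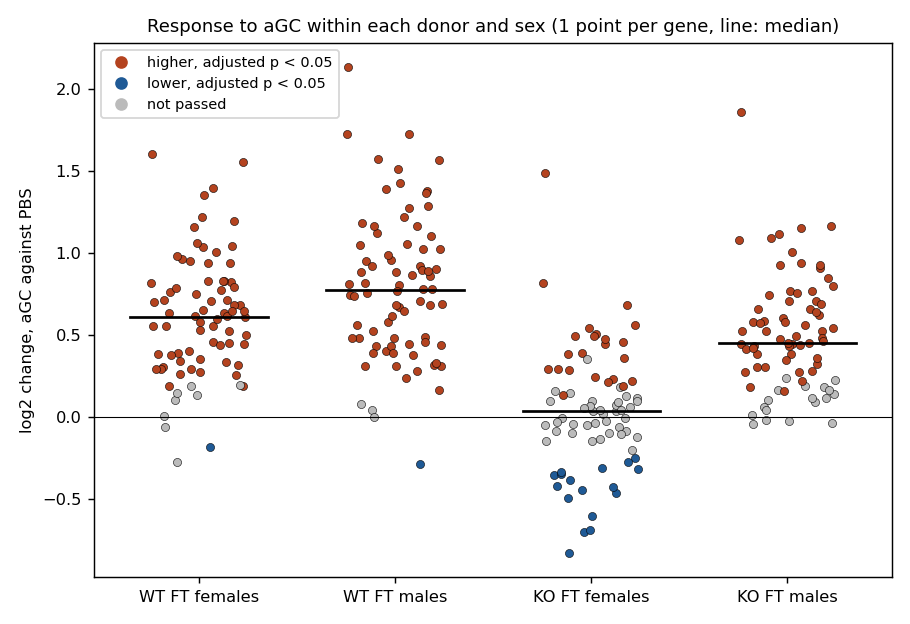
Log2 change after aGC for each of the 78 genes within each donor and sex, coloured by the call, with the median as a line. The medians are 0.61 and 0.77 in WT FT females and males, and 0.04 and 0.45 in KO FT females and males.

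Combining the sexes and donors, 22 genes rose in all 4 comparisons, against 10.6% of all genes. They were Mrpl3, Mrpl12, Mrpl15, Mrpl16, Mrpl17, Mrpl20, Mrpl36, Mrpl37, Mrpl39, Mrpl45, Mrpl47, Mrpl49 and Mrpl50 of the large subunit and Mrps2, Mrps6, Mrps7, Mrps10, Mrps18b, Mrps22, Mrps25, Mrps27 and Mrps28 of the small. A further 29 rose in both sexes of WT FT mice and in KO FT males and did not pass in KO FT females (3.25% of all genes). Another 9, among them Mrpl10, Mrpl27, Mrpl57 and Mrps16, rose in both sexes of WT FT mice and fell in KO FT females (1.44% of all genes).

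The profiles over the 8 groups were alike for most members. The highest group mean was that of WT FT aGC males for 64 of the 78 genes, and the lowest was that of KO FT PBS males for 56. Across the 8 group means, the log2 level of a gene correlated with the mean of the other 77 with a median r of 0.931. For 46 genes r was above 0.9. Closest to the common profile were Mrpl40 (0.993), Mrpl21 (0.990), Mrps18a (0.987), Mrpl36 (0.986) and Mrps12 (0.985). Farthest from it were Mrpl9 (0.008), Mrpl58 (0.384), Mrpl53 (0.387) and Mrpl44 (0.473), the 4 genes with r below 0.5. These values describe 8 points that share libraries and scaling. Among the members, the log2 change in WT FT mice had a Spearman correlation of 0.097 with exon length and 0.058 with mean level.

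**Figure D5:**
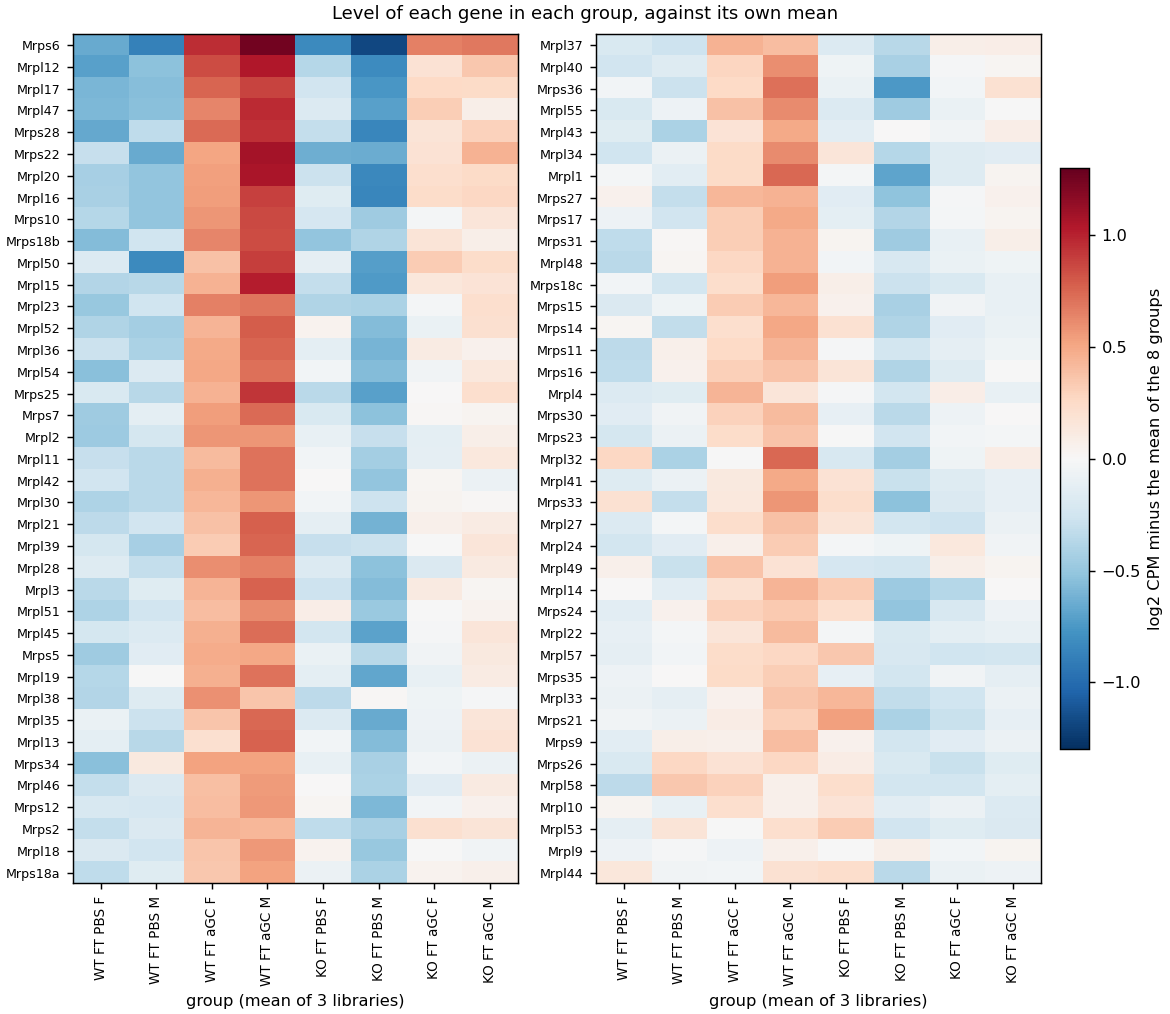
Mean log2 CPM of each of the 78 genes in each group of 3 libraries, minus the gene's mean over the 8 groups (red above, blue below), ordered by the log2 change after aGC in WT FT mice. The WT FT aGC columns are red for most genes, deepest in males, and the KO FT PBS male column is blue for most, while Mrpl9 stays near 0 in every column.

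The other parts of the mitochondrial translation system are given beside the 30.9% of all genes called higher and 37.5% called lower in WT FT mice. All 5 ribosomal proteins with other names rose in WT FT mice: Gadd45gip1 by 0.95, Chchd1 by 0.77, Ptcd3 by 0.53, Aurkaip1 by 0.33 and Dap3 by 0.09 on the log2 scale. Of 26 ribosome assembly factors 15 rose and 3 fell (median 0.36), led by C1qbp (1.92 ± 0.034), Mrm3 (1.22), Rcc1l (1.02) and Ddx28 (0.87), while Mtg2 (0.01) and Mpv17l2 (0.02) did not pass. The value of Mpv17l2 averages opposite changes in the sexes. In WT FT females Mpv17l2 went from between 45.0 and 47.2 CPM to between 61.1 and 65.9 CPM. In WT FT males it went from between 71.2 and 75.1 CPM to between 51.5 and 58.8 CPM. Of 16 translation factors 9 rose and 2 fell (median 0.24), with the elongation factors Gfm1 (1.18), Tsfm (1.12) and Tufm (0.89) in front. Of 20 genes that charge mitochondrial tRNAs 13 rose and 3 fell (median 0.32), Yars2 by 0.98 and Mars2 by 0.89, while Lars2 fell by 0.48. The response in KO FT mice was lower for 14 of the 26 assembly factors and higher for 2, against 22.6% and 21.9% of all genes, and C1qbp differed by -0.52. Of the 16 translation factors 5 were lower and 2 higher, which is near these shares.

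The RNAs encoded by mitochondrial DNA followed another pattern. Of the 13 mitochondrially encoded mRNAs 0 rose and 10 fell in WT FT mice (30.9% and 37.5% of all genes), with a median of -0.42. mt-Co1, a subunit of cytochrome oxidase, fell by 0.94 ± 0.078. In females 12 of 13 fell, against 29.8% of all genes, with a median of -1.06. In males 3 rose and 1 fell, against 31.7% and 34.9% of all genes, with a median of 0.10. The response was higher in males than in females for 12 of the 13, against 24.2% of all genes. The mRNAs together made up 0.346% ± 0.0076 of the counts in WT FT PBS females, 0.148% ± 0.007 in aGC females, 0.258% ± 0.0226 in PBS males and 0.229% ± 0.0203 in aGC males. In KO FT mice 1 rose and 1 fell (28.1% and 30.1% of all genes). WT FT aGC females, with the lowest share of these mRNAs, are a group with high CD8 markers, and so are WT FT PBS males, and the part of these cells was not tested.

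The counts of both mitochondrial rRNAs, the RNA parts of this ribosome, went opposite ways in the sexes. In WT FT females mt-Rnr2 fell by 0.95 and mt-Rnr1 by 1.56 on the log2 scale, and in WT FT males they rose by 0.46 and 0.87. The difference between the sexes was 1.41 ± 0.13 for mt-Rnr2 and 2.43 ± 0.27 for mt-Rnr1 (edgeR adjusted p = 3.73e-09 and 1.26e-07). Summed, they went from between 190.2 and 209 CPM to between 84.2 and 100.5 CPM in WT FT females and from between 169 and 189 CPM to between 199 and 231 CPM in WT FT males. Nearly all of this sum was mt-Rnr2, at 88.7 to 232 CPM over all libraries, while mt-Rnr1 stood at 2.82 to 14.5 CPM. In KO FT females mt-Rnr2 fell by 0.41 and mt-Rnr1 by 0.86. In KO FT males mt-Rnr2 rose by 0.34 and mt-Rnr1, at 0.30 ± 0.19, did not pass. The changes over both sexes of WT FT mice, -0.25 for mt-Rnr2 and -0.34 for mt-Rnr1, average these opposite ones. PBS males and aGC females of both donors had high CD8 markers, and the part of that in these changes was not tested.

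Among 8 measured regulators of mitochondrial genes, Myc rose most, by 2.12 ± 0.054 in WT FT mice, with a response smaller by 0.37 in KO FT mice. Gabpa and Gabpb1, which form the ETS-family factor known to act on many of these promoters, rose by 0.61 and 0.48 over both sexes. Gabpa rose in WT FT males, from between 16.78 and 20.48 CPM to between 36.21 and 46.77 CPM. In WT FT females Gabpa stood at 26.25 to 31.02 CPM after PBS and 26.1 to 32.12 CPM after aGC, which overlap. Pprc1, a coactivator, rose by 0.67, and Esrra and Ppargc1b each fell by 0.43. Esrra fell in WT FT males, from between 15.6 and 16.7 CPM to between 8.05 and 9.66 CPM. In females it stood at 15.9 to 17.9 CPM after PBS and 13.5 to 20.2 CPM after aGC, which overlap. Nrf1 (0.09 ± 0.046) and Yy1 (0.24 ± 0.11) did not pass in WT FT mice.

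Since the members rose together, their promoters were searched for the motifs of these factors. Of the 78 genes 69 matched an entry of the RefSeq promoter table (GRCm38.p6), each from 250 bases before to 50 after the start. Both strands were searched for exact matches. The ETS motif CTTCCGG was found in 26 of the 69 promoters (37.7%), against 19.8% of the 10572 promoters of tested genes and 9.9% of all 27025. The NRF1 motif GCGCATGC was found in 8 (11.6%, against 5.8% and 3.0%), and the YY1 motif AAGATGGC in 12 (17.4%, against 5.2% and 3.2%). At least 1 of these 3 was found in 38 promoters (55.1%), against 27.9% of tested genes. The MYC motif CACGTG was found in 5 (7.2%, against 11.5% and 8.1%), CCAAT in 27 (39.1%, against 43.0% and 41.1%) and TATAAA in 5 (7.2%, against 9.3% and 15.7%). A match of letters is a description and not a bound site.

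The motifs stood before genes with large and with small changes. The median log2 change in WT FT mice was 0.55 with the ETS motif and 0.69 without, 0.40 with the NRF1 motif and 0.65 without, and 0.67 with the YY1 motif and 0.63 without. With the MYC motif, found in 5 promoters, it was 0.92, and 0.62 without. It was 0.68 with CCAAT and 0.61 without, and 0.56 with TATAAA and 0.65 without. As examples, 4 stretches just before the start are given for genes with large rises and 3 for genes with small or no changes, each 5′ to 3′ on the gene's own strand with the motif in capitals. The first 4 are Mrpl17 (NRF1, chr7:105811088-105811128, minus strand, log2 rise 1.39), Mrps22 (ETS, chr9:98601680-98601720, minus strand, 1.27), Mrpl52 (ETS, chr14:54426832-54426898, plus strand, 1.03) and Mrpl36 (YY1, chr13:73330949-73331008, plus strand, 0.97). The last 3 are Mrps26 (ETS, chr2:130563713-130563756, plus strand, 0.20), Mrpl58 (ETS, chr11:115403705-115403751, plus strand, 0.18) and Mrpl9 (NRF1, chr3:94443278-94443335, plus strand, not passed, 0.04).
Mrpl17: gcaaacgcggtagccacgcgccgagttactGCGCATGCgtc
Mrps22: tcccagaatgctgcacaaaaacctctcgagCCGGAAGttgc
Mrpl52: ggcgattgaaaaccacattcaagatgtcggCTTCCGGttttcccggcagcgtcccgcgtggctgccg
Mrpl36: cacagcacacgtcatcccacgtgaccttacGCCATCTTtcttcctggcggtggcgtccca
Mrps26: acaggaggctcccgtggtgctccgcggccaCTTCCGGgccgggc
Mrpl58: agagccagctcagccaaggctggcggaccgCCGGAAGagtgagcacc
Mrpl9: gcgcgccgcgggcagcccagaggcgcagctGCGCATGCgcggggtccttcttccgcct

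The stretch of Mrpl36 also holds the MYC motif CACGTG, left in small letters. The motif of Mrpl17 begins 11 bases before the start, as does that of Mrps22, and that of Mrps26 begins 14 bases before it. The ETS motif, on opposite strands but at nearly the same place, thus stood before a gene that rose 2.42-fold, Mrps22, and one that rose by 0.20 on the log2 scale, Mrps26.

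Many members share their promoter region with a gene that runs the other way. For 19 of the 78 (24.4%) a protein-coding gene on the other strand began within 1000 bases upstream, against 11.1% of 12552 tested protein-coding genes. Of the 18 such neighbours that were tested, 11 rose, 4 fell and 3 did not pass after aGC in WT FT mice, against 30.9% higher and 37.5% lower among all genes. Ndufs6, a subunit of respiratory complex I beside Mrpl36, rose by 0.80 on the log2 scale, and Sars2, the mitochondrial seryl-tRNA synthetase beside Mrps12, rose by 0.50. Klc4 fell by 1.01 beside Mrpl2, which rose by 0.92, and Ncapd2 fell by 0.66 beside Mrpl51, which rose by 0.83. Mrpl46 and Mrps11 lie head to head on chromosome 7 with overlapping ends, and 10.5% of the 31-base words of Mrpl46 also occur in Mrps11. Their reads cannot be fully told apart without strand, and they rose by 0.72 and 0.49.

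For some members the counts are uncertain because transcripts share sequence. Of the 78 genes 16 shared no 31-base word with another annotated gene, 29 shared over 10% and 3 over 50%. The 3 were Mrpl53, with 84.4% shared with Gm42688, Mrps34, with 73.8% shared, mostly with Mapk8ip3, and Mrps25, with 68.9% shared with Nr2c2. Mrpl23, the lowest member in CPM, has a processed copy, Mrpl23-ps1, which held a mean of 65.8 CPM against 16.2 CPM for Mrpl23 itself, both scaled by library totals, and 10.3% of the words of Mrpl23 occur in it. These shares are over the words of all annotated transcripts of a gene. Mrpl23 has 4958 such words, while the median length of its coding transcripts is 692 bases. The 10.3% can therefore understate the overlap of its coding transcript, whose own share was not measured.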

How the data were processed

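Total RNA was sequenced after Nextera XT library preparation, per the labels' protocols, which does not keep the strand. The authors deposited 1 table of expected counts (estimated counts per gene, in whole numbers), made with kallisto on GRCm38 (mm10), per the submitters' processing notes. Neither its version nor the annotation is given in the sources used here. Of 55335 gene identifiers 55154 matched GENCODE M21, which gave symbols, biotypes and transcripts, and 181 did not.

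The filter on low counts was filterByExpr (a minimum count of 10 and a total of 15, over 8 groups). Counts were scaled by TMM and fitted by edgeR's quasi-likelihood test on all 24 libraries with 8 group means (16 residual degrees of freedom). Comparisons are contrasts of these means, two-sided, with Benjamini-Hochberg adjustment over all 15953 genes and a threshold of 0.05. CPM in the text are TMM-scaled unless summed over a list, given as a share or said to be scaled by library totals, where library totals were used. The SE was derived from the log2 change and its F statistic. Named genes are, for each comparison, taken from the 10 largest rises and 10 largest falls among those called, the 5 highest and lowest per kilobase, genes called in opposite directions in the sexes and a list of members with known roles, and a few from each other list, up to 4 called and up to 2 not called. The regulators and the ribosomal proteins with other names are exceptions, and all measured genes of these lists are named. The divergent neighbours, the printed promoters and the genes with shared words were chosen after their values were seen. The members and the lists were chosen with earlier results of these data known. A further list of T cell markers is not reported here.

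Alternatives were library totals, relative log expression factors, DESeq2, no filter, a mean of at least 5 CPM, a replicate block, leaving out each library, 1 summed profile per group (common biological coefficient of variation 0.424, against 0.108 between libraries) and leaving out PBS males and aGC females. The response difference under that last setting and the donor comparisons within each sex were added after the data had been seen. No member had fewer than 109 counts in a library, and the part of counting error in the spread between libraries was not tested. The coefficient of variation of a member between the libraries of a group reached 34.8%. Software was edgeR 4.0.16 and DESeq2 1.42.0 under R 4.3.3, and pandas 2.3.3 and matplotlib 3.10.9 under Python 3.11.15.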

Additional observations from a re-analysis of the deposited data

Results flagged for a closer look

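Several results were singled out because the same comparison gave a different answer in 2 groups, by a test of the difference itself (edgeR's quasi-likelihood test, adjusted over all genes). The response to aGC differed between donors for 70 members, which were lower in KO FT mice, and for 0 that were higher, most for Mrps10 at -0.75 on the log2 scale. Over all genes 22.6% were lower and 21.9% higher. Between the sexes of WT FT mice the response differed for 29 members that were higher in males and 6 that were lower, most for Mrpl32 at 1.44. Over all genes 24.2% were higher in males and 23.5% lower. Between the sexes of KO FT mice the response differed for 59 members that were higher in males and 1 that was lower, most for Mrpl14 at 1.18. Over all genes these were 25.3% and 21.4%.

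The difference between donors after PBS was itself different in the sexes for 52 members that were lower in males and 3 that were higher, most for Mrpl58 at -1.15. Over all genes 21.7% were lower in males and 21.1% higher. Mrpl58 was higher in KO FT than in WT FT libraries of PBS females by 0.56 and lower in those of PBS males by 0.59. After aGC the donor difference differed between the sexes for 20 members that were lower in males and 3 that were higher, most for Mrpl50 at -0.61. Over all genes 12.4% were lower in males and 17.4% higher. The CD8 T cell markers differ between the sexes within each treatment, and their part in these differences was not tested.

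Outside the 78 genes, the processed pseudogene Mrpl23-ps1 held a mean of 65.8 CPM over the 24 libraries (scaled by library totals), a signal in an entry that no comparison used. It stood at 49.5 to 53.6 CPM in WT FT PBS females and 57.0 to 73.2 CPM in PBS males, and at 76.4 to 83.3 CPM in WT FT aGC females and 72.4 to 86.7 CPM in aGC males. Among KO FT libraries it stood at 62.7 to 81.6 CPM in PBS females and 55.9 to 61.65 CPM in aGC females, and at 55.6 to 62.8 CPM in PBS males and 51.0 to 77.3 CPM in aGC males, which overlap. The other 4 pseudogene entries named after a member had means below 0.05 CPM.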

How the results depend on the processing

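No called change of a gene named for the 5 comparisons over both sexes reversed under the alternatives run for it; of the members not called in WT FT mice, Mrpl44, Mrpl9 and Mrpl53 changed sign with library totals. Most counts of members called stayed within 1.5 times, and those that did not are given here. With 1 profile per group the members called were 24 higher in WT FT mice, 1 higher and 0 lower in KO FT mice, 0 higher and 0 lower for the donors after PBS, 0 lower after aGC and 0 lower for the response difference. With library totals the members called lower were 2 in WT FT mice, 4 in WT FT females and 2 for the sex difference in KO FT mice, and the members called higher were 1 for the donors after aGC, 1 for that in females and 5 for the sex difference of the donors after PBS. Without a filter on low counts the members called higher were 2 for the donors after PBS, 14 in KO FT females, 1 for the donors after PBS in males and 0 for both sex differences of the donors, and those called lower were 2 in WT FT females, 0 for the sex difference in KO FT mice, 3 for the donors after PBS in females and 10 for the sex difference of the donors after aGC. With a mean of at least 5 CPM the members called lower were 4 in KO FT mice, 2 in WT FT females and 2 for the sex difference in KO FT mice. Relative log expression factors gave 1 member higher for the donors after PBS in males and 1 for the sex difference of the donors after aGC, and DESeq2 gave 1 higher for the donors after PBS in males. Without PBS males and aGC females 33 members were higher and 13 lower in KO FT mice. For these alternatives the cause was not tested.

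Leaving out 1 library at a time, the members called ranged from 2 to 8 lower in KO FT mice, 0 to 2 lower in WT FT females, 1 to 2 lower for the sex difference in KO FT mice, 3 to 6 lower and 1 to 2 higher for the donors after PBS in females and in males, and 1 to 5 and 1 to 3 higher for the sex differences of the donors after PBS and after aGC. In the other 27 counts of members every such value stayed within 1.5 times. In 84 pairs of libraries with the same replicate number, deviations from the group means had a median correlation of -0.024. The highest was 0.431, and 10 pairs were above 0.1. In 168 pairs with another number the median was 0.002. The medians show no pairing by number, but they cannot exclude pairing between some of the groups. With a replicate block the counts were 75 higher in WT FT mice, 50 higher and 7 lower in KO FT mice, 3 higher and 15 lower for the donors after PBS, 77 lower after aGC and 70 lower for the response difference.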
